A study of Mus musculus with 5 samples.

Results

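Histone genes were followed on 5 Affymetrix expression arrays of mouse tumor-specific CD4+ T cells. A probe set, a group of short probes that report on one transcript or on several near-identical ones, was taken as a histone probe set when its gene symbol in the platform annotation, alone or among several, belonged to the clustered histone families H2A, H2B, H3 and H4 or to the variants H2A.X, H2A.Z and H3.3. This gave 38 of 45101 probe sets, of which 26 belong to clustered genes and 12 to the variants. Only 14 of the 38 carry 1 gene symbol. The other 24 carry several, because the coding sequences of the copies are nearly the same, so signal cannot be assigned to 1 copy, and these probe sets are named here by their ID and family. The rule also lists older symbols (H1f0, H2afy, H2afv and the Hist names of linker histones). The annotation gives such genes newer symbols, and 12 probe sets of this kind are described apart from the 38. The gene H1f0 was not analysed here.

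The 3 activated samples were CD4+ T cells of TCR-transgenic SCID mice, taken 8 days after 100000 MOPC315 cells, a mouse plasma cell tumor, had been injected under the skin in 250 µl of Matrigel. Draining axillary lymph nodes of 12 to 15 mice were pooled for each sample, and cells positive for CD4 and for the GB113 antibody were sorted, with at least 95% purity. For the 2 naive samples, lymph nodes of TCR-transgenic SCID mice without tumor cells were pooled. Mice of both groups were on a Balb/c background and aged 7 to 12 weeks. All samples thus carry the same transgenic receptor and the SCID defect, each was a separate experiment on pooled animals, and no sample with Matrigel alone was analysed here. Sorting and a purity are given here for the activated samples only. The arrays contain RNA of whole cell populations, so more cells that make a histone mRNA and more of it per cell cannot be told apart.

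Core histones form the protein spool of the nucleosome, and linker histone H1 binds the DNA where it enters and leaves. Clustered histone genes lack introns, are transcribed mainly in S phase when new DNA has to be packed, and give mRNAs that end in a stem-loop in place of a poly(A) tail. Replacement variants such as H2A.Z and H3.3 come from genes with introns and polyadenylated mRNAs, and are deposited throughout the cell cycle. The standard labelling for these arrays primes on poly(A) tails, so the signals of clustered genes need not follow their total mRNA. How far this holds here was not tested.

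Promoter sequences show how the genes behind these probe sets differ at their starts. RefSeq windows of GRCm38.p6, from 250 bases before to 50 bases after the annotated gene start, were held for 56 of the 63 annotated histone genes, as 57 windows. They were searched on both strands for a TATA box, spelled TATAAA. The CCAAT box was searched as its name spells it. The octamer, known as a site of Oct factors in H2B promoters, was ATTTGCAT, and 4 spellings of a site for the cell cycle factor E2F were TTTCCCGC, TTTGGCGC, TTTCGCGC and TTTGCCGC. Matches of different motifs shared bases in 0 of the 57 windows. Shown here, 5′ to 3′ with matches in capitals, are the 250 bases before the start of 6 genes. H2ac6 and H2ac22 are among the 10 genes of the H2A probe set with the largest rise. H2ac13, H2ac23 and H2ac24 of the same set held CCAAT boxes only. H2az1, H2az2 and H3f3b are variants with a called probe set, and H2ac19 is an H2A gene with no called probe set. The full H2ac19 window holds a further CCAAT box at 14 from the start. The H2ac18 window shares much of this sequence, and there TATAAA begins at 11, so matches depend on where the start is annotated. Whether promoters differ between called and other genes was not tested.
H2ac6 (chr13:23683960-23684209, minus strand): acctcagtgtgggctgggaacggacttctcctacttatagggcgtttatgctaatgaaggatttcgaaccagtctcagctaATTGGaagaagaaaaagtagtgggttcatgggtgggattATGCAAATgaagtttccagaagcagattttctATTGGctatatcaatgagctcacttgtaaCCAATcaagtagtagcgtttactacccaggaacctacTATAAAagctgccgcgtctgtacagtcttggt
H2ac22 (chr13:21787249-21787498, minus strand): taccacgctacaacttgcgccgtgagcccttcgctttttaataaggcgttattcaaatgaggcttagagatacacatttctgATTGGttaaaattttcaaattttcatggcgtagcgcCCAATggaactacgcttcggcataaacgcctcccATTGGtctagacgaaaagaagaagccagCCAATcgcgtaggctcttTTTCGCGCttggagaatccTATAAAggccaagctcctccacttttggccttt
H2ac19 (chr3:96240375-96240624, minus strand): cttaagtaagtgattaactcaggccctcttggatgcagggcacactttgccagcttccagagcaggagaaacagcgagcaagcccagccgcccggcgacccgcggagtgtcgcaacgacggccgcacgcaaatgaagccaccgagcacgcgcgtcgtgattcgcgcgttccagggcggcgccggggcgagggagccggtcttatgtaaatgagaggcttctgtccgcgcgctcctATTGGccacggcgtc
H2az1 (chr3:137864237-137864486, plus strand): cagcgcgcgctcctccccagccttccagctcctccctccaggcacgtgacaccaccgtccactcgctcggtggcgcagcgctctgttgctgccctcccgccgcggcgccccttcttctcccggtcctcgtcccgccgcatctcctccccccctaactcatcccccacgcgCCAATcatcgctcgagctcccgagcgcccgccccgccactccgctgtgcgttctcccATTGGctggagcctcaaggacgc
H2az2 (chr11:6444444-6444693, minus strand): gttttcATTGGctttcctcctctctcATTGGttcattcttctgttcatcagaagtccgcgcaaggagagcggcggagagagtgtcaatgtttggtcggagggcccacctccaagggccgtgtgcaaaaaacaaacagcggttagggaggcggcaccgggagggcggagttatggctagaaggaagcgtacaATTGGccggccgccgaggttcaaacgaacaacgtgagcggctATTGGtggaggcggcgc
H3f3b (chr11:116024505-116024754, minus strand): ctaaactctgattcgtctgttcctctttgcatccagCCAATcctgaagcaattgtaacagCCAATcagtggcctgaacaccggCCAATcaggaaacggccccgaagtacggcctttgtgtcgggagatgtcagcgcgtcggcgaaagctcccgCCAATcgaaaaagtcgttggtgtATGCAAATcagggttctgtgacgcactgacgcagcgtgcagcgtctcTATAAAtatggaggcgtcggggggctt

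A CCAAT box was found in all 13 windows of H2A genes, all 13 of H2B and all 10 of H3, but in 3 of 12 of H4 (25.0%), against 37.4% of the 32851 promoter windows of the reference. The H2B windows include that of H4bc24, counted here as H2B because it is annotated together with H2B genes, and H2bc6 has a pair of windows that are both counted. The octamer was in 5 of the 13 H2A windows and in 4 of 13 H2B windows, against 1.74% of all windows, and in none of the 10 H3 or 12 H4 windows. An E2F spelling was in 4 H2A, 3 H2B and 1 H4 window, against 2.26% of all. TATAAA, on either strand and at any position, was in 7 H2A, 5 H2B, 4 H3 and 8 H4 windows, against 13.6%. Its matches in H4 windows began from -250 (H4c6) to 41 (H4c1) bases from the gene start. In H2A windows they began from -142 (H2ac8) to 30 (H2ac7), so a match need not be a working TATA box. Among the 10 genes of probe set 1438009_at, 6 windows held TATAAA, 10 a CCAAT box, 4 the octamer and 4 an E2F spelling. Both H2A.Z windows held CCAAT boxes and no match to the other motifs, while the H3f3b window held a TATA box, CCAAT boxes and an octamer. In 7 cases an H2A and an H2B window lay head to head on opposite strands and overlapped, by 233 to 279 bases, so these genes share most of the sequence searched. A match is a description of the letters only.

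**Figure D1:**
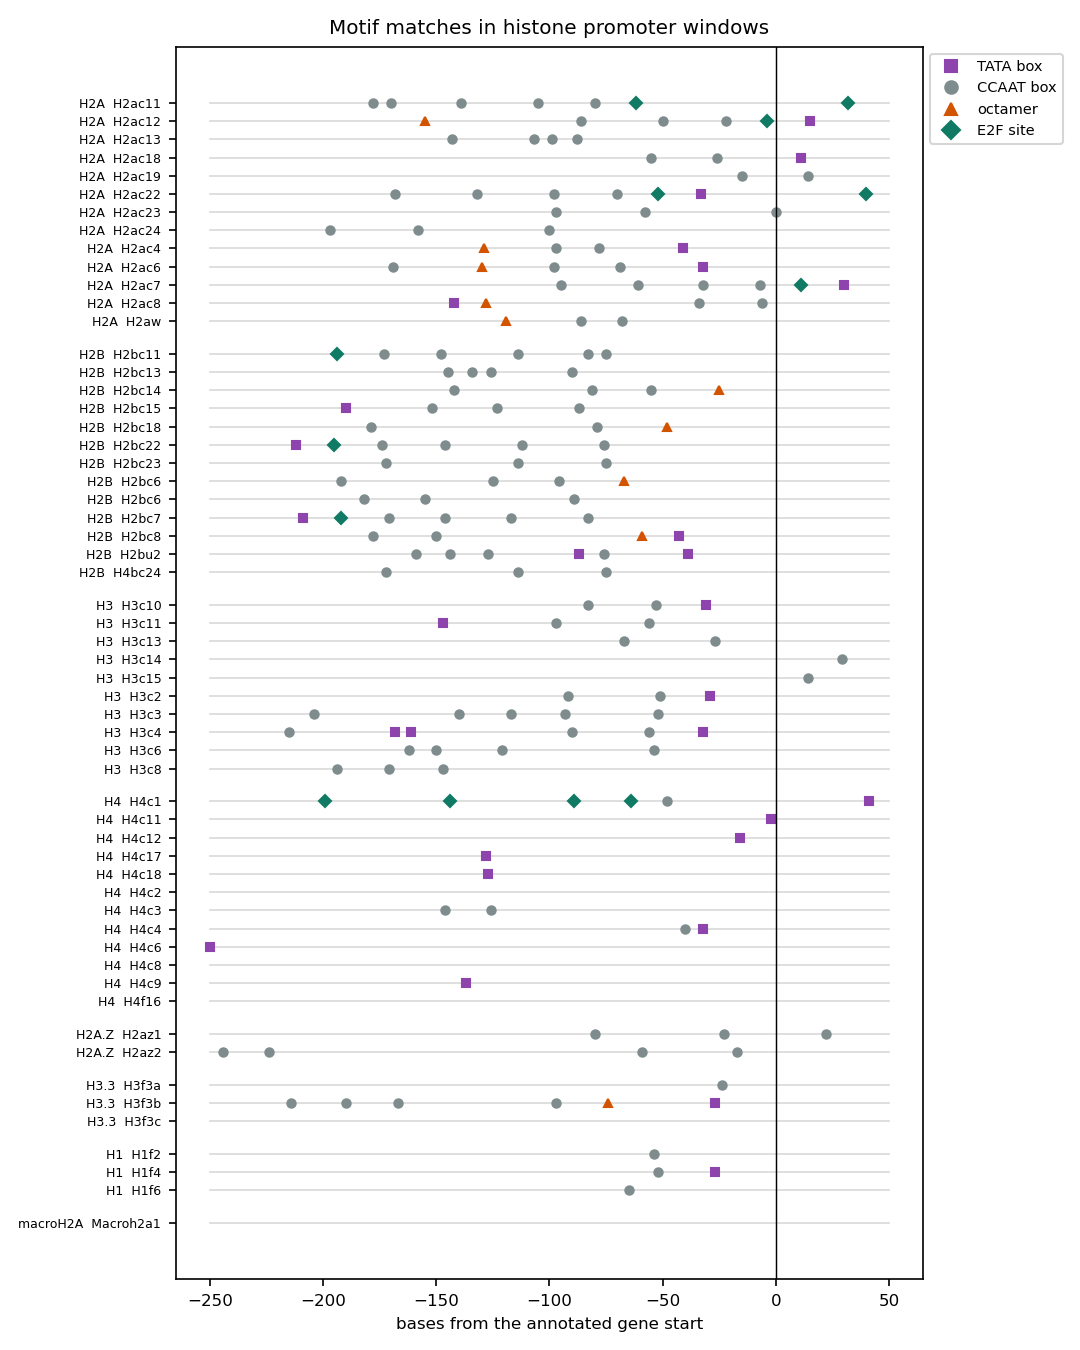
Motif matches in the 57 promoter windows of histone genes, by class. The x axis is the distance in bases from the annotated gene start, each grey line is 1 window and each mark the first base of a match on either strand. The octamer appears in H2A and H2B windows and in that of H3f3b, and E2F spellings in H2A, H2B and 1 H4 window.

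Among histones, activated cells had more of a shared H2A signal, a shared H2B signal, H2A.X and H2A.Z, and less signal at 1 of the H3.3 probe sets. Values were compared as log2(intensity + 16) with limma's moderated test, two-sided, in probe sets above the 40th percentile of their array (an intensity of 10.6 to 13.4) on at least 2 arrays. Of the 38 histone probe sets 30 passed this filter, and none of them did so through only 1 of the groups. The other 8, all of clustered genes, had intensities between 0.3 and 17.9 and were not tested. At an adjusted p under 0.05 (Benjamini-Hochberg), 5 of the 30 were higher in activated cells (16.7%), where 4.80% of all 29201 tested probe sets were. A single one was lower (3.33%), where 2.94% of all were, which is near the background. The 3 activated arrays lay above both naive arrays in 11 of the 30 (36.7%, against 18.8% of all tested) and below both in 6 of the 30, where 20.3% of all tested probe sets were.

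The change was uneven across the histone probe sets. Over all 38, tested or not, the median log2 difference was 0.05, with a range from -1.97 to 3.16, beside a median of -0.02 over all probe sets. The median was -0.02 over the 26 of clustered genes and 0.43 over the 12 of variants. Of the 18 clustered probe sets tested, 2 were higher and 0 lower by limma's test. Of the 12 variant probe sets, 3 were higher and 1 was lower, where 4.80% of all tested probe sets were higher and 2.94% lower. Without activated replicate 2, only 2 histone probe sets were called higher.

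**Figure D2:**
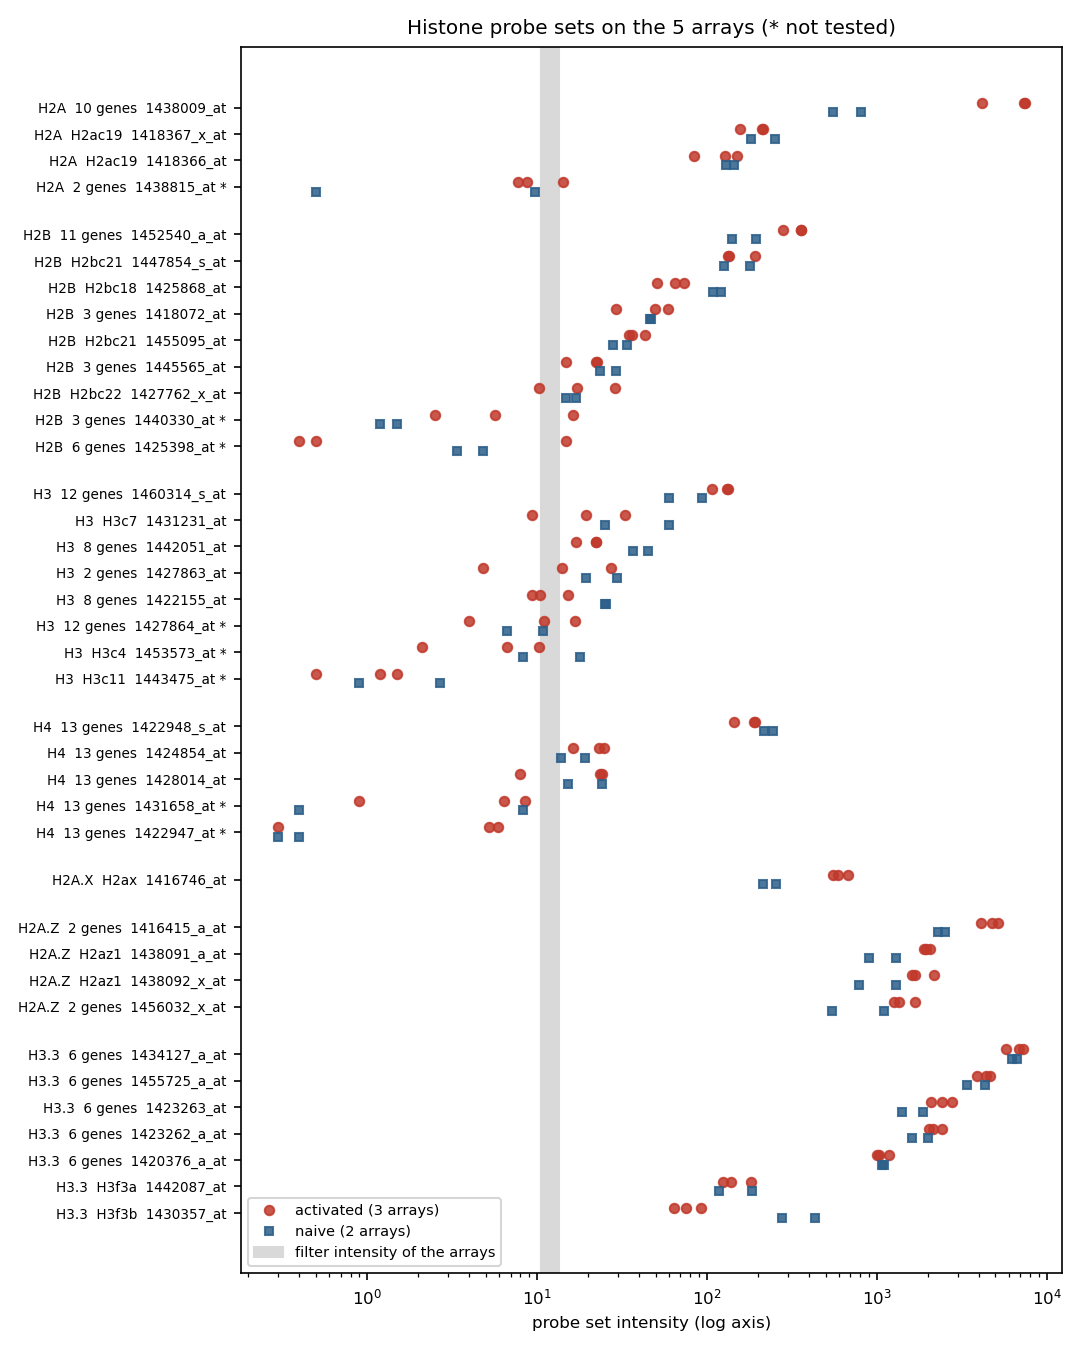
Intensity of each of the 38 histone probe sets on the 5 arrays (x axis, log scale), with 3 activated arrays as circles and 2 naive arrays as squares. The grey band spans the filter intensities of 10.6 to 13.4. Probe set 1438009_at stands apart between the groups, and the H3 and H4 probe sets lie close together or overlap.

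The largest rise of a histone was in H2A, whose family packs DNA together with H2B at the outer faces of the nucleosome. Probe set 1438009_at, annotated to 10 H2A genes of chromosome 13 (H2ac4, H2ac6, H2ac7, H2ac8, H2ac11, H2ac12, H2ac13, H2ac22, H2ac23 and H2ac24), had intensities of 7434.3, 7366.8 and 4192.3 in activated cells, against 812.8 and 550.8 in naive cells. The groups were far apart, although activated replicate 3 was lower than the other activated samples. The log2 fold change was 3.16 ± 0.27 (SE, limma adjusted p = 1.1e-04), which ranked 36 from the top among all tested probe sets. It kept its call in all 16 alternatives that held it, with log2 fold changes from 2.89 to 3.44. The windows of H2ac6 and H2ac22 printed above belong to this set.

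The remaining H2A probe sets belong to H2ac18 and H2ac19, a pair of H2A genes outside that set, and did not pass the test. H2ac19 had intensities of 128.8, 151.2 and 83.8 in activated cells, against 130.6 and 144.2 in naive cells, at 1418366_at (log2 fold change -0.19 ± 0.24, limma adjusted p = 0.70). At 1418367_x_at it had 215.4, 211.0 and 156.8 in activated cells and 253.3 and 182.5 in naive cells (-0.15 ± 0.21, adjusted p = 0.75). The groups overlapped at both. The shared probe set 1438815_at was above the filter on 1 array only and was not tested. H2A thus holds both the largest histone rise and probe sets whose groups overlap.

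For H2B, the partner of H2A, 1 of 7 tested probe sets rose. Probe set 1452540_a_at, annotated to 11 symbols, 10 of them of H2B genes and the other H4bc24, had 282.6, 357.5 and 360.7 in activated cells, against 195.4 and 140.7 in naive cells. Every activated array was above both naive arrays, and the log2 fold change was 0.93 ± 0.20 (SE, limma adjusted p = 0.021). This call was lost without activated replicate 2 (0.88, adjusted p = 0.10), without activated replicate 3 (0.88, 0.064) or when naive replicate 2 was dropped (0.72, 0.14), and over all alternatives the adjusted p ran from 0.015 to 0.14. H2bc18, an H2B gene of chromosome 3, ran the other way without passing the test. It had 64.7, 73.4 and 50.8 in activated cells and 120.7 and 109.1 in naive cells, with no overlap (log2 fold change -0.74 ± 0.21, adjusted p = 0.062). H2bc18 passed the threshold under 3 of 17 alternatives, with adjusted p from 0.026 to 0.17.

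The other H2B probe sets had log2 fold changes between -0.25 and 0.20. H2bc21 had 134.4, 132.7 and 191.8 in activated cells, against 126.8 and 179.0 in naive cells, at 1447854_s_at, with a log2 fold change of 0.00 ± 0.23. Its dimmer probe set 1455095_at gave 0.20 ± 0.22, and neither passed the test. H2bc22, one of the genes of the called H2B probe set, gave 0.09 ± 0.28 at its own probe set 1427762_x_at, where intensities lay between 10.3 and 28.8. The 3 probe sets annotated to H2bc4, H2bc6 and H2bc8 together gave -0.05 and -0.25 where tested (1418072_at and 1445565_at), and 1440330_at was not tested. These genes also stand in the annotation of the called H2B probe set, so the probe sets of H2B disagree with each other.

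H3 and H4, which form the inner core of the nucleosome, had no called probe set among the 5 and 3 tested. Probe set 1460314_s_at, annotated to 12 H3 genes, had 134.0, 131.2 and 107.6 in activated cells, against 93.7 and 60.2 in naive cells. The groups did not overlap, and the log2 fold change was 0.61 ± 0.22 (limma adjusted p = 0.13). Probe sets 1422155_at and 1442051_at, annotated to the same 8 H3 genes, lay below in activated cells, with -0.59 ± 0.24 (adjusted p = 0.19) and -0.64 ± 0.23 (adjusted p = 0.13). At 1442051_at activated cells had 22.3, 22.4 and 16.9, against 45.0 and 36.6 in naive cells, again without overlap. All 8 of these genes are also among the 12, so H3 probe sets pointed in both directions and none past the threshold. H3c7 gave -0.66 ± 0.35 and H3c2 with H3c10 gave -0.42 ± 0.33, both with overlapping groups. Probe sets of H3c4, of H3c11 and a further one of the 12 genes were not tested.

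The H4 probe sets are all annotated to the same 13 genes. At 1422948_s_at activated cells had 192.3, 190.3 and 144.8, against 217.3 and 246.1 in naive cells. The groups did not overlap, but the log2 fold change of -0.38 ± 0.19 did not pass the test (limma adjusted p = 0.29). Probe sets 1424854_at and 1428014_at gave 0.20 ± 0.25 and -0.07 ± 0.30, with overlapping groups. The remaining 2 H4 probe sets were not tested, with intensities of at most 8.5 on any array.

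H2A.X, the H2A variant whose tail is phosphorylated around DNA breaks and whose gene yields both a stem-loop and a polyadenylated mRNA, rose. H2ax had 678.1, 555.3 and 590.5 in activated cells, against 256.8 and 214.0 in naive cells. The groups did not overlap, and the log2 fold change was 1.31 ± 0.18 (SE, limma adjusted p = 0.0016). H2ax kept this call under all 17 alternatives, with log2 fold changes from 1.17 to 1.44.

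H2A.Z, a variant placed at promoters by the SRCAP and p400 remodelling complexes, was higher at each of the 4 probe sets of H2az1, and 2 of them passed the test. Probe set 1416415_a_at, annotated to H2az1 and Gm8203, had 4758.2, 5194.7 and 4099.8 in activated cells, against 2527.5 and 2282.8 in naive cells (log2 fold change 0.95 ± 0.17, limma adjusted p = 0.0069). H2az1 at 1438091_a_at had 1958.3, 1903.9 and 2069.5 in activated cells, against 901.2 and 1292.8 in naive cells (0.86 ± 0.18, adjusted p = 0.019). In all 4 probe sets the activated arrays lay above both naive arrays, beside 18.8% of all tested probe sets. All 4 are annotated to H2az1, so they do not stand for separate genes, and 1456032_x_at also carries Gm8203. The 2 not called gave 0.83 ± 0.23 (1438092_x_at, adjusted p = 0.056) and 0.85 ± 0.27 (1456032_x_at, adjusted p = 0.089). At these, and at 1438091_a_at, naive replicate 2 was well above naive replicate 1.

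Both H2az1 calls were lost under some alternatives. The call of 1416415_a_at was lost without activated replicate 2 (0.87, limma adjusted p = 0.059) or when naive replicate 2 was dropped (0.88, 0.065), against 8.4e-04 to 0.065 over all its alternatives. That of 1438091_a_at was lost when the fit left out activated replicate 1 (0.87, 0.061), or 2 (0.89, 0.082), or naive replicate 1 (0.61, 0.12). It was also lost with no filter (0.86, adjusted p = 0.053) and with eBayes without a trend (0.86, 0.058), and its adjusted p ran from 0.0026 to 0.12 over all alternatives.

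H2az2, the gene of the second H2A.Z protein, known under the older symbol H2afv, moved in the same way. At 1428029_a_at it had 1065.8, 1254.6 and 1138.4 in activated cells, against 588.7 and 587.1 in naive cells, with no overlap. The log2 fold change was 0.95 ± 0.16 (SE, limma adjusted p = 0.0057), and it kept its call in all 16 alternatives that tested it. The dimmer probe set 1436596_at gave 0.26 ± 0.21 (adjusted p = 0.53). The printed windows of H2az1 and H2az2 both carry CCAAT boxes close to the start and no TATA box.

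H3.3, the replacement form of H3 that is deposited throughout the cell cycle, also outside S phase, is encoded by H3f3a and H3f3b. H3f3b fell at 1430357_at, with 75.2, 64 and 93.0 in activated cells, against 278.5 and 430.6 in naive cells. The groups were well separated, and the log2 fold change of -1.97 ± 0.23 (SE, limma adjusted p = 7.4e-04) ranked 57 from the bottom among all tested probe sets. It kept its call under all 17 alternatives, from -2.27 to -1.55. The probe set of H3f3a with 1 symbol, 1442087_at, had 182.5, 139.3 and 125.2 in activated cells and 185.7 and 118.0 in naive cells, with overlap (-0.01 ± 0.24, adjusted p = 0.99).

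The other 5 H3.3 probe sets, annotated to H3f3a, H3f3b and 4 further symbols at once, did not fall with it. At 1434127_a_at activated cells had 6844.5, 7237.8 and 5787.9, against 6727.0 and 6283.2 in naive cells (log2 fold change 0.02 ± 0.16, limma adjusted p = 0.96). Across these 5 the log2 fold changes ran from -0.04 to 0.57, and none passed the test. Probe set 1423263_at was at the upper end, with 2789.9, 2099.9 and 2409.2 in activated cells, against 1409.9 and 1869.4 in naive cells (0.57 ± 0.19, adjusted p = 0.10). H3f3b was therefore lower at the only probe set annotated to it alone, while the bright shared probe sets were not. Which transcript 1430357_at reports on was not tested.

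**Figure D3:**
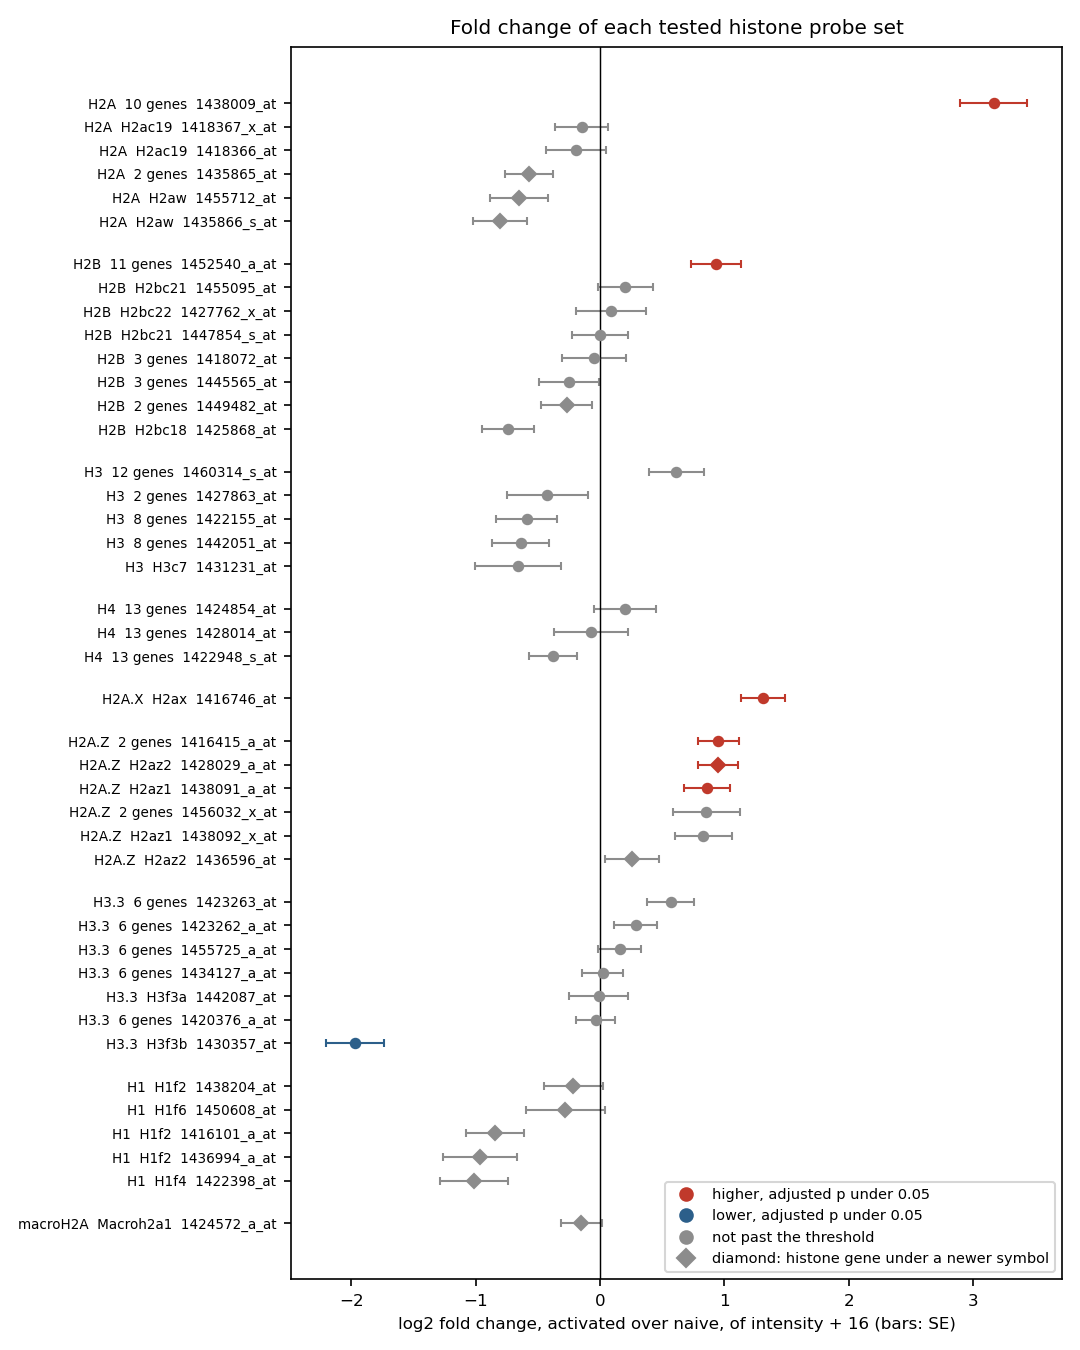
Log2 fold change, activated over naive, of every tested histone probe set with its standard error, on the scale of intensity + 16. Circles are the 30 tested probe sets of the rule and diamonds the 12 of histone genes under newer symbols. The H2A set at 3.16 and H3f3b at -1.97 mark the ends, and the 5 probe sets of the linker histones H1f2, H1f4 and H1f6 lie left of 0 without passing the test. Other linker histones are not drawn.

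Linker histones, which bind linker DNA and compact the fibre, had 5 probe sets of H1f2, H1f4 and H1f6 among those under newer symbols. None passed the test. In 4 of the 5, most of them probe sets of H1f2, all activated arrays were below both naive arrays, beside 20.3% of all tested probe sets. H1f2 had 60.4, 54.8 and 90.6 in activated cells, against 120.5 and 147.9 in naive cells, at 1416101_a_at (log2 fold change -0.85 ± 0.23, limma adjusted p = 0.055). H1f4 had 23.0, 18.3 and 35.7 in activated cells, against 86.2 and 51.2 in naive cells (-1.01 ± 0.27, adjusted p = 0.051). Both stood close to the threshold: H1f2 passed it in 5 of 16 alternatives (adjusted p from 0.026 to 0.24) and H1f4 in 10 of 17 (0.029 to 0.23). At 1436994_a_at, H1f2 gave -0.97 ± 0.30 (adjusted p = 0.081). Other linker histones did not show this order. H1f10 had 28.0, 36.1 and 24.1 in activated cells, against 37.9 and 2.1 in naive cells, which overlapped (0.53 ± 0.40, adjusted p = 0.49). H1f7, known from the testis, gave -0.11 ± 0.28 (adjusted p = 0.87), also with overlap, and H1f8 and Hils1 were below the filter on all arrays.

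H2aw, an H2A gene outside the large clusters, was below naive cells on all activated arrays at each of its 3 probe sets. Of these, 1435865_at is also annotated to Trim17. At 1435866_s_at H2aw had 92.3, 62.8 and 73.4 in activated cells, against 161.9 and 127.2 in naive cells. The log2 fold change there was -0.80 ± 0.22 (limma adjusted p = 0.051), past the threshold in 7 of 16 alternatives with adjusted p from 0.030 to 0.19. Probe sets 1435865_at and 1455712_at gave -0.57 ± 0.20 (adjusted p = 0.12) and -0.65 ± 0.23 (adjusted p = 0.13). Macroh2a1, the H2A variant with a large additional domain, had 1026.6, 1062.3 and 1207.3 in activated cells and 1132.7 and 1312.3 in naive cells, which overlapped (-0.15 ± 0.16, adjusted p = 0.65). Of these 12 probe sets under newer symbols, 1 was called higher, that of H2az2, and 0 lower. Their groups did not overlap with activated cells lower in 8 of 12 (66.7%), beside the 20.3% of all tested probe sets. These 8 include several probe sets of H1f2 and of H2aw, so they do not stand for 8 separate genes.

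**Figure D4:**
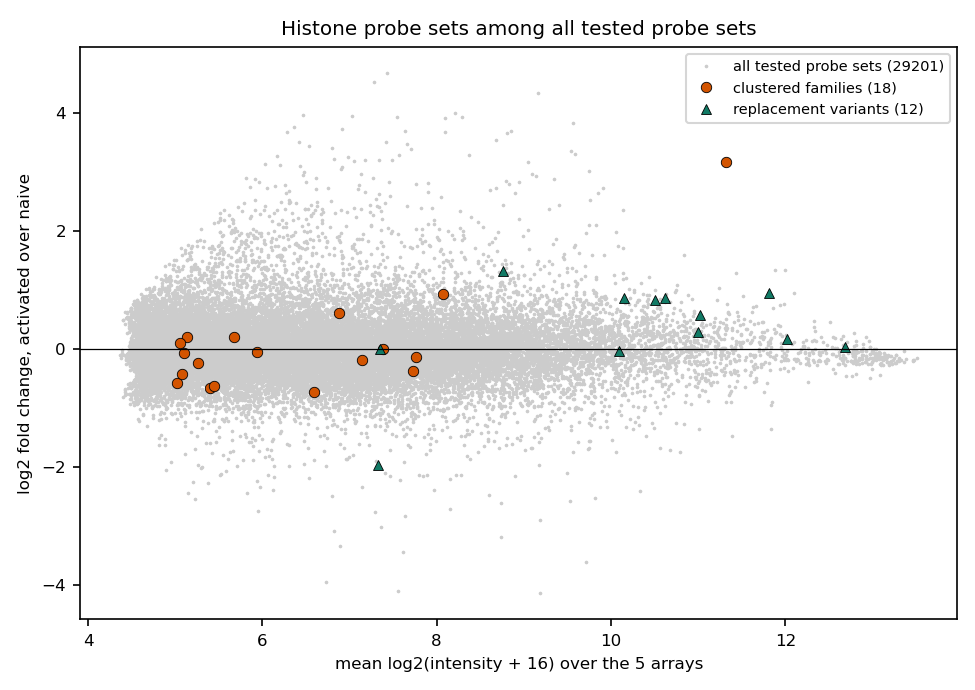
Log2 fold change, activated over naive (y axis), against the mean of log2(intensity + 16) over the 5 arrays (x axis). Grey points are all 29201 tested probe sets, circles the 18 tested probe sets of clustered histones and triangles the 12 of replacement variants. Probe set 1438009_at at 3.16 lies far above others of like mean intensity, and most histone probe sets lie inside the grey cloud.

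Genes that make, process and deposit histones were described from lists chosen by function. Of 25 genes for histone gene transcription and mRNA processing, 3 were higher and 0 lower, where 4.80% and 2.94% of all tested probe sets were, with a median log2 difference of -0.04. Slbp, which binds the stem-loop of clustered histone mRNAs, had 979.2, 894.2 and 697.1 in activated cells, against 322.5 and 267.9 in naive cells (1.48 ± 0.19, limma adjusted p = 0.0013). Ccne2 and Ccne1, cyclins of the kinase that starts histone gene transcription at S phase entry, rose by 1.29 ± 0.22 (adjusted p = 0.0060) and 1.20 ± 0.28 (adjusted p = 0.027). The Ccne1 call was lost when the fit left out activated replicate 1 (1.16, 0.093), or 2 (1.09, 0.12), or naive replicate 1 (0.78, 0.12), and with no filter (1.20, 0.078), beside 0.010 to 0.12 over all alternatives. The other 22, among them Npat, the coactivator of clustered histone genes (-0.07 ± 0.20), did not pass the test.

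Of 37 histone chaperones and deposition factors, 33 had a probe set with 1 symbol, and 4 of these were higher and 1 lower, with a median log2 difference of 0.31. Of all tested probe sets 4.80% were higher and 2.94% lower, so the 1 lower gene is near the background. Asf1b, a chaperone that hands H3 and H4 to newly made DNA, had 253.7, 334.2 and 303.8 in activated cells, against 57.4 and 67.4 in naive cells (1.99 ± 0.19, limma adjusted p = 2.5e-04). Chaf1b, a subunit of the replication-coupled assembly factor CAF-1, rose by 1.24 ± 0.19 (adjusted p = 0.0036). Mms22l, part of a complex that binds histones at replication forks, rose by 1.23 ± 0.22 (adjusted p = 0.0083), and lost its call without activated replicate 2 (1.14, 0.054), beside 0.0043 to 0.054 over all alternatives. Hat1, which acetylates new H4, had 495.4, 458.9 and 462.9 in activated cells, against 237.0 and 249.9 in naive cells (0.91 ± 0.16, adjusted p = 0.0078). Daxx, a chaperone of H3.3, fell with 640.2, 586.9 and 454.4 in activated cells, against 932.4 and 928.3 in naive cells (-0.73 ± 0.19, adjusted p = 0.041). Daxx lost its call when any 1 of the 5 arrays was left out, with adjusted p from 0.051 to 0.15, and over all alternatives from 0.0097 to 0.15.

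Among 10 further histone variants, 7 had a probe set with 1 symbol and 4 were tested. Cenpa, the H3 variant of centromeres, was the 1 called, with 397.9, 459.4 and 549.0 in activated cells, against 73.6 and 77.5 in naive cells (2.39 ± 0.19, limma adjusted p = 7.8e-05). H2aj, a polyadenylated H2A, had 812.0, 907.0 and 936.0 in activated cells, against 614.5 and 925.0 in naive cells, which overlapped (0.22, adjusted p = 0.56).

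Genes of DNA replication and S phase, the period in which clustered histone genes are known to be active, were higher in activated cells. Of 29 with a probe set, 27 were higher and 0 lower by limma's test, with a median log2 difference of 1.44. Rrm2, a subunit of ribonucleotide reductase, had 1000.0, 1413.2 and 1444.8 in activated cells, against 114.6 and 59.2 in naive cells (3.70 ± 0.26, limma adjusted p = 3.3e-05). Ccna2, the cyclin of S and G2 phase, rose by 2.90 ± 0.19 (adjusted p = 2.6e-05). Tk1, thymidine kinase, had 152.2, 177.0 and 157.9 in activated cells, against 4.0 and 1.2 in naive cells, which lay below the filter, so its size depends on the pseudocount. Tk1 was tested through the activated arrays alone and had to differ. Without Tk1, 26 of 28 were higher, where 4.80% of all tested probe sets were. The 2 not called were Cdt1, a factor that licenses replication origins (0.08, adjusted p = 0.83), and the transcription factor E2f1 (0.68, adjusted p = 0.11). Whether this list and the histone probe sets differ was not tested.

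**Figure D5:**
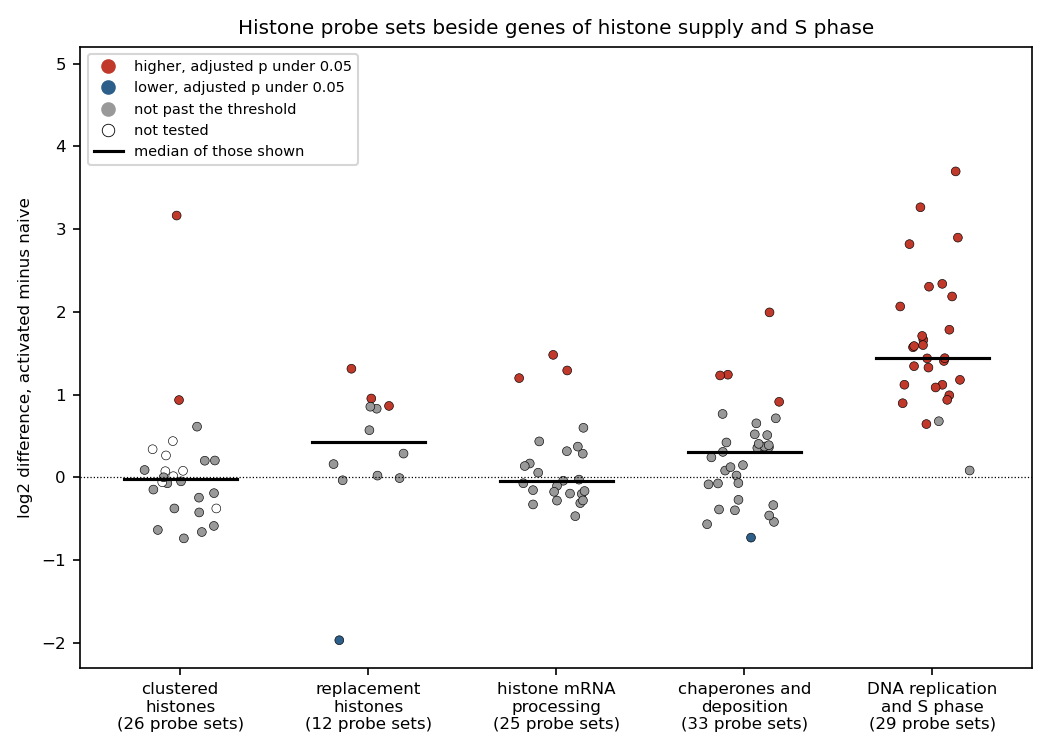
Log2 difference, activated minus naive, of the 38 histone probe sets in their 2 kinds and of the genes of 3 lists (1 probe set a gene). Black bars are medians of the points shown, -0.02, 0.43, -0.04, 0.31 and 1.44 from left to right, and open points were not tested.

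The label of the cells was checked against markers. Of 10 CD4+ T cell markers 9 had a probe set, and all 9 lay above the filter on each activated array. Their summed intensities were 16784 to 18792 in activated cells and 16038 to 16700 in naive cells. Cd5 (1.85 ± 0.18, limma adjusted p = 2.5e-04) and Zap70 (0.71 ± 0.17, 0.031) were called higher in activated cells, and Thy1 lower (-0.79 ± 0.18, 0.024). Activated replicate 1 stood apart in myeloid and NK cell markers. Its summed myeloid markers reached 5684, against 2046 and 2943 in the other activated samples and 2271 and 2503 in naive cells. Ctss, whose groups overlapped, made up most of the myeloid sum on all other arrays. Lyz2 had 1953.9, 35.8 and 353.6 in activated cells, against 118.2 and 60.3 in naive cells. Activated replicate 3 was thus also above both naive arrays for Lyz2. The NK cell markers of activated replicate 1 reached 4733, against 1158 to 1198 in the other activated samples and 1406 to 1714 in naive cells. Eomes was the 1 NK cell marker called (2.19 ± 0.44, limma adjusted p = 0.014). It had 696.4, 281.6 and 440.9 in activated cells, against 154.9 and 43.4 in naive cells. B cell markers summed to 134 to 198 in activated and 101 to 124 in naive cells, with Cr2 and Fcer2a below the filter on all arrays. Cd22 was the 1 B cell marker called. It had 59.7, 92.6 and 90.9 on the activated arrays, against 30.7 and 20.5 on the naive arrays (1.21 ± 0.24, limma adjusted p = 0.014). Plasma cell markers summed to 1510 to 1731 in activated and 1261 to 1410 in naive cells, stroma markers to 363 to 434 and 243 to 273, and erythroid markers to 594 to 647 and 219 to 325. Xbp1, whose groups overlapped, made up most of the plasma cell sum. Within it, Pou2af1 had 303.0, 380.4 and 423.9 in activated cells, against 74.2 and 80.2 in naive cells (2.03 ± 0.20, limma adjusted p = 2.4e-04). Derl3 was above the filter on activated arrays only and Sdc1 on naive arrays only, so both had to differ, in opposite directions. Pecam1, which T cells can also express, made up most of the stroma sum, at 305.1, 258.6 and 345.4 on the activated arrays, against 157.9 and 168.7 on the naive arrays. Tfrc, the transferrin receptor of dividing cells, made up most of the erythroid sum, at 557.2, 588.4 and 612.2 on the activated arrays, against 196.3 and 262.5 on the naive arrays. CD8+ T cell markers, Cd8a and Cd8b1, summed to 271 to 406 in activated and 852 to 1040 in naive cells. Cd8b1 carried this difference, with 326.5, 246.8 and 275.0 on the activated arrays, against 797.6 and 995.7 on the naive arrays (-1.61 ± 0.19, limma adjusted p = 7.1e-04). Cd8a had 79.2, 24.4 and 18.7 in activated cells, against 54.0 and 44.6 in naive cells, which overlapped (-0.35 ± 0.38, adjusted p = 0.65). Without activated replicate 1, 4 histone probe sets were higher and 1 was lower. The part of other cells in the remaining differences was not tested.

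The arrays also fell on opposite sides by the intensity of bioC, a bacterial control transcript added before hybridisation, which is no batch in the labels. Activated replicates 1 and 2 and naive replicate 1 were on the high side, and activated replicate 3 and naive replicate 2 on the low side. The H2A probe set 1438009_at differed by 3.16 on the high side and 2.89 on the low side, H2ax by 1.21 and 1.40, the H2B probe set 1452540_a_at by 0.66 and 1.27, H2az2 at 1428029_a_at by 0.96 and 0.94, H2az1 at 1438091_a_at by 1.09 and 0.67, and H3f3b by -1.79 and -2.03. Each thus kept its direction on both sides. With bioC side as a block, 8 histone probe sets were higher and 2 lower, the added ones being 2 of H2az1, the H3.3 probe set 1423263_at and, among the lower, H2bc18.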

How the data were processed

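Per the labels' protocols, biotin-labelled cRNA was prepared from 6 µg of total RNA taken up in Trizol. The deposited table gives linear intensities, one value for every probe set on every array. How these were summarised and scaled is not given in the sources used here. After trimming 2% at each end the mean was 100.00 on every array, and differences are therefore relative to that mean. Precision is limited by the number of arrays, 3 and 2.

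Probe sets carry the symbols of the platform annotation, and promoter windows were read from RefSeq. From the intensities, log2(intensity + 16) was fitted with limma 3.58.1 in R 4.3.3 (lmFit and eBayes with trend, group as the only term) over 29201 of 45101 probe sets, with the 64 array controls left out and Benjamini-Hochberg adjustment over all tested. Errors are SE of the moderated test. Pearson correlations of arrays across probe sets, which are not replicates, were 0.965 to 0.974 within groups and 0.921 to 0.943 between groups, and at most 0.947% of values were equal in any pair of arrays. The test code was tested on simulated data.

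The histone probe sets and the gene lists were chosen with earlier results of these data known. All called histone probe sets, the variants of the rule and the main probe sets of each class are named, and of each other list the 3 largest rises and falls among called genes, 1 probe set a gene. Hat1, Npat, H2aj, H1f7, H1f8, H1f10, Hils1, Pecam1, Tfrc, Cdt1 and E2f1 were named after their values were seen, as were the histone probe sets outside that rule. The markers Cd5, Zap70, Thy1, Lyz2, Ctss, Eomes, Cd22, Xbp1, Pou2af1, Derl3, Sdc1, Cd8a and Cd8b1 were also named after their values were seen. Alternatives to this fit were normalization by quantiles or by array medians, the filter removed or raised to the 60th percentile, pseudocounts of 1 and 64, eBayes with no trend or with robust variances, a single probe set for each gene, no suffixed probe sets, blocks for replicate number or bioC side, and the omission of each array.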

Additional observations from a re-analysis of the deposited data

How the results depend on the processing

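Over all probe sets, 870 were higher and 510 lower with no filter, 819 and 533 with 1 probe set a gene, and 1890 and 1487 with the bioC side as a block. Leaving out 1 array in turn gave 723 to 1334 higher and 325 to 645 lower. Of the histone probe sets, 2 were lower with the filter at the 60th percentile, 2 higher and 2 lower with 1 probe set a gene, 2 higher without suffixed probe sets, and 8 higher and 2 lower with the bioC block. A single probe set a gene leaves out all 24 histone probe sets with several symbols, and the fit without suffixed probe sets leaves out 14 of the 38. Leaving out 1 array gave 2 to 5 higher, 1 lower each time and a median difference of 0.0166 to 0.126. Whether the replicate number pairs the samples could not be decided (correlations of deviations of 0.174 for number 1 and -0.119 for number 2). With 2 naive arrays, deviations from their mean are mirror images of each other, so these correlations are not separate for each number. As a replicate block, the replicate number gave 1384 higher and 933 lower over all, 6 and 1 among histones, and a median of 0.126. Number 3 has no naive array, so this block gives the same log2 fold changes as leaving out activated replicate 3. Of the S phase list 15 were higher without suffixed probe sets, which leaves fewer genes to test, and of the chaperone list 7 were higher with the bioC block. The 1 lower chaperone, Daxx, was also not called with no filter, no trend or the replicate block.

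Among 840 values of 53 single probe sets under alternatives, 757 kept direction and side of the threshold, 38 gained the call, 23 lost it and 22 reversed, all of 10 probe sets far from the threshold (lowest adjusted p 0.58, largest size 0.285). H2bc21 at 1447854_s_at gave -3.4e-05 at a pseudocount of 64, and 1434127_a_at gave -0.0134 with the bioC block. With the replicate block H2ac19 at 1418366_at gave 0.0219, 1428014_at 0.17, H3f3a 0.0949 and H2bc21 -0.16. Leaving out 1 array gave ranges of -0.35 to 0.0219 for H2ac19 at 1418366_at, -0.37 to 0.0716 at 1418367_x_at, -0.26 to 0.17 for 1428014_at, -0.30 to 0.29 for H3f3a, -0.22 to 0.22 for H2bc21, -0.0466 to 0.11 for 1434127_a_at, -0.20 to 0.16 for 1418072_at, -0.10 to 0.00828 for 1420376_a_at, -0.11 to 0.27 for H2bc22 and -0.0202 to 0.34 for 1455725_a_at. The causes were not tested. The probe sets 1438009_at, 1416746_at (H2ax), 1430357_at (H3f3b) and 1428029_a_at (H2az2) stayed called under every alternative that tested them. The 8 histone probe sets below the filter are limited by signal, and no direction is read from them.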
